A study of Mus musculus with 6 samples.

Results

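The genes described are 9 components of the Notch pathway, chosen by name: the receptors Notch1, Notch2 and Notch3, the ligands Jag1, Jag2 and Dll1, and the transcriptional targets Hes1, Hey1 and Heyl. They were matched by the platform annotation to 17 of the 34945 probe sets that name 1 gene, and make up 9 of the 18193 genes so represented. Signals were read in FACS-sorted skin cells of 14-day-old mice labelled Ezh1/2 2KO, a double knockout (2KO), and of mice labelled Ezh1/2 WT, the wild type (WT). Each genotype gave 3 populations: basal epidermis, the progenitor layer of the interfollicular skin; matrix, the bulb cells whose division feeds the growing hair; and outer root sheath (ORS), the outermost epithelium of the follicle. There was 1 Affymetrix array in each of the 6 groups. All mice had a mixed C57B6 and CD1 background. The 2KO basal epidermis came from females, and the other 5 samples from both sexes. The labels name neither the alleles nor a Cre driver, and do not say how many mice gave a sample or whether populations came from the same mice.

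Notch signalling passes between touching cells. A ligand of the Jagged or Delta-like family on 1 cell binds a Notch receptor on its neighbour, the receptor is cut by ADAM proteases and then by gamma-secretase, and the freed intracellular part joins the DNA-binding protein RBPJ and a Mastermind co-activator to switch on Hes and Hey genes, which encode repressors. In the epidermis the pathway is known for driving basal cells towards differentiation, and in the hair follicle for maintaining the differentiating lineages of the bulb. Polycomb repressive complex 2 (PRC2) carries either Ezh1 or Ezh2 as its methyltransferase, marks histone H3 on lysine 27, acts mostly at CpG-rich promoters and keeps developmental genes silent.

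For the receptor and the ligand with the largest opposite differences in basal epidermis and ORS, Notch1 and Dll1, the 250 bases before the start of the gene are shown as RefSeq gives them for GRCm38.p6, 5′ to 3′ on the minus strand, with CpG dinucleotides in capitals. The stretch of Notch1 lies at chr2:26503823-26504072 and that of Dll1 at chr17:15376933-15377182.
Notch1: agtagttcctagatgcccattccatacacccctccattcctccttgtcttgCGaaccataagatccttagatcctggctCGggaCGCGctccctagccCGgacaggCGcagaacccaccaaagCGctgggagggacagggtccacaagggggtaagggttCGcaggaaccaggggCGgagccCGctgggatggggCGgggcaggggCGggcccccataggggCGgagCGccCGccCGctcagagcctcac
Dll1: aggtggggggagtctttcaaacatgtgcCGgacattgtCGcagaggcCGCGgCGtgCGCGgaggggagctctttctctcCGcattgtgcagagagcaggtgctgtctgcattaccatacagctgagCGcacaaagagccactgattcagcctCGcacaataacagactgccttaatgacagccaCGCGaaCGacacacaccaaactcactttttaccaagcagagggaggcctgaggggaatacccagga
The Notch1 stretch holds 16 CpG and that of Dll1 13, against a median of 6 over the same 250 bases of all 32851 promoters in the table. Promoters with fewer CpG than these made up 74.6% and 68.5% of the table. Of the 9 genes, 6 had a promoter there, 7 promoters in all because Dll1 has 2, and Hes1, Hey1 and Heyl had none. Jag2 held 54 CpG, Notch2 34, Jag1 20, Notch3 17 and the other Dll1 promoter 21. The stretches of Jag2, Notch3 and the other Dll1 promoter do not lie at the 5′ end of the gene as RefSeq gives it. GGGCGG, the core of the GC box bound by Sp1-type factors, was searched on both strands with overlapping matches counted. It occurred 5 times in Notch1, 5 times in Notch2, 4 times in Notch3 and 5 times in Jag2, and in neither Jag1 nor either Dll1 promoter, against 32.7% of all promoters with at least 1 match. TGGGAA, the core of the RBPJ site, was in none of the 7 on either strand and in 21.6% of all promoters.

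Values are MAS5 signals, a linear brightness per probe set that had been scaled to 1 trimmed mean per array before deposit. With 1 array a group there is no spread between replicates, so differences are described by their size and were not tested. A gene is called higher or lower in 2KO at a 2-fold difference, the fold the series text uses. Signals below 83.2, the median of all non-control probe sets, were raised to that floor before a ratio was taken, and a gene below it on both arrays counted as not measured. A gene is represented by its brightest probe set unless others are named. In these bulk samples fewer cells of a type and less RNA per cell cannot be told apart.

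Both targeted genes read lower in 2KO than in WT in each population. For Ezh2 the brightest probe set gave 432 in 2KO and 2563 in WT basal epidermis, 1725 in 2KO and 3578 in WT matrix, and 378 in 2KO and 2151 in WT ORS. The brightest Ezh1 probe set read between 51.6 and 89.4 on the 2KO arrays and between 317 and 401 on the WT arrays. Whether these probes lie in a deleted part is not known. Marker genes set the matrix arrays apart. The summed signal of 13 matrix genes was 55183 in 2KO and 74124 in WT matrix, against 5289 to 11656 on the other 4 arrays. That of 8 basal layer genes was between 107510 and 134166 on the basal epidermis and ORS arrays, and did not tell them apart. The sum of 8 suprabasal genes was 110189 in 2KO and 95637 in WT basal epidermis, against 12578 to 30835 on the other 4 arrays. The basal epidermis arrays thus also held strong signals of differentiation genes, and the part of suprabasal cells in them was not tested. The sum of 10 ORS genes was 68040 in 2KO and 63145 in WT ORS, and 44530 in 2KO and 52496 in WT basal epidermis. The 2KO matrix array stood apart from WT matrix in other markers. There the sum of 10 ORS genes was 38188 in 2KO and 14671 in WT, and that of 10 fibroblast genes 37247 in 2KO and 20417 in WT. The sum was 6358 in 2KO and 1332 in WT for 10 pericyte and smooth muscle genes, 5123 in 2KO and 1128 in WT for 10 immune genes, and 3450 in 2KO and 712 in WT for 10 skeletal muscle genes. In basal epidermis and ORS some markers differed between the genotypes too. The sum of 8 Merkel cell genes was 3348 in 2KO and 415 in WT basal epidermis, and 4568 in 2KO and 877 in WT ORS. Of 12 measured matrix genes, 2 were called higher and 4 lower in 2KO basal epidermis, and 2 higher and 5 lower in 2KO ORS. Of all genes called, 61.7% (basal epidermis), 84.8% (matrix) and 63.2% (ORS) were higher in 2KO. After scaling to a common median these shares were 52.2%, 55.4% and 39.0%, and after scaling to the hybridisation controls 52.3%, 17.9% and 48.9%.

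Differences between the genotypes were mostly below 2-fold. Of the 8 genes measured in basal epidermis none was called, where 10.7% of all 11527 measured genes were, and Heyl was below the floor on both arrays. In matrix 1 of 9 was called, Hes1, which was lower, and in ORS 1 of 9, Notch1, which was higher, beside 10.7% of all genes called either way in matrix and 12.9% in ORS. Over all genes 1.62% of 11661 were at least 2-fold lower in matrix, and 8.16% of 11994 at least 2-fold higher in ORS. Over the measured genes of the set the median log2 ratio was 0.12 in basal epidermis, -0.22 in matrix and 0.14 for ORS, beside 0.04, 0.03 and 0.01 over all measured genes. The counts are near the background. By role, receptors and Hey1 were mostly above WT and ligands mostly below, by less than 2-fold and with the exceptions given for each gene.

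**Figure D1:**
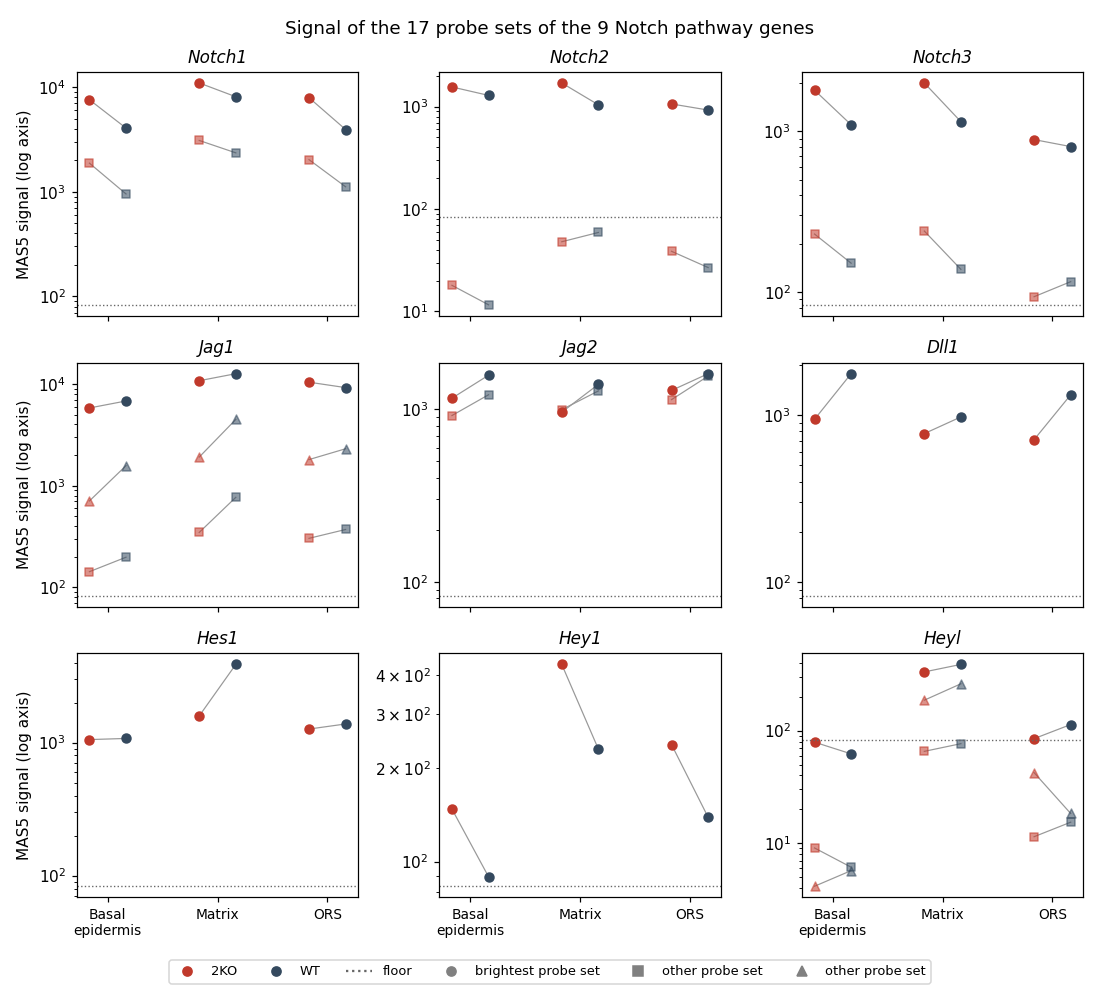
MAS5 signal (log axis) of each probe set of the 9 genes, with 2KO to the left of WT in each population and 1 point per array. Lines join the 2 arrays of a population, the dotted line is the floor of 83.2, and round points are the brightest probe set of a gene. The Notch1 points lie higher in 2KO in all 3 populations, and the Dll1 points lower.

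Notch1, a receptor made by keratinocytes, was higher in 2KO in each population. Its brightest probe set read 7558 in 2KO and 4051 in WT basal epidermis, 10927 in 2KO and 8071 in WT matrix, and 7904 in 2KO and 3927 in WT ORS. In basal epidermis and ORS the 2KO signal lay near the level of WT matrix, while both WT arrays lay at about the same lower level. The folds were 1.87 in basal epidermis, 1.35 in matrix and 2.01 for ORS, so that only ORS reached 2-fold, by a narrow margin. The other Notch1 probe set read 1874 in 2KO and 952 in WT basal epidermis, 3088 in 2KO and 2350 in WT matrix, and 2025 in 2KO and 1114 in WT ORS, which are 1.97-, 1.31- and 1.82-fold. The 2 probe sets fell on different sides of 2-fold in ORS and gave like sizes throughout. The log2 ratio stayed between 0.79 and 0.94 in basal epidermis and between 0.76 and 1.08 in ORS under the 8 alternative settings. In matrix it was 0.44, and with the hybridisation controls as the scale -0.19, which moved the median of all measured genes there to -0.58.

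Notch2, a receptor that acts beside Notch1 in skin, read 1557 in 2KO and 1288 in WT basal epidermis, 1703 in 2KO and 1042 in WT matrix, and 1063 in 2KO and 926 in WT ORS. It was higher in 2KO by 1.21-, 1.63- and 1.15-fold. In matrix the log2 ratio of 0.71 was 0.08 after scaling to the hybridisation controls and 0.20 with the mean over probe sets, while in basal epidermis the ratio of 0.27 was 0.18 and 0.45 under the same settings. In ORS the log2 ratio of 0.20 was -0.05 after scaling to a common median. Its other probe set was below the floor on all 6 arrays.

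Notch3, a receptor best known in vascular smooth muscle and also made by keratinocytes, read 1803 in 2KO and 1098 in WT basal epidermis, 1999 in 2KO and 1148 in WT matrix, and 888 in 2KO and 803 in WT ORS. The other probe set read 229 in 2KO and 151 in WT basal epidermis, 240 in 2KO and 138 in WT matrix, and 93.4 in 2KO and 116 in WT ORS. Both were higher in 2KO in basal epidermis, by 1.64- and 1.52-fold, and in matrix, by 1.74- and 1.73-fold. In ORS they disagreed, at 1.11-fold higher and 1.24-fold lower, and the log2 ratio of 0.14 was between -0.31 and -0.01 under 4 of the 8 alternatives: both rescalings, the mean over probe sets, and the exclusion of probe sets with _x, _s or _a in their ID. The pericyte and smooth muscle list was summed at 3273 in 2KO and 3307 in WT basal epidermis, 6358 in 2KO and 1332 in WT matrix, and 12396 in 2KO and 12634 in WT ORS. In matrix 8 of its 10 genes were above the floor in 2KO and 5 in WT. In ORS 8 of its 10 genes were above 0 in log2 ratio, with a median of 0.71. There 3 were called higher (Pdgfrb, Cspg4 and Des), and 2 bright genes, Acta2 and Tagln, were below 0. In basal epidermis 1 of the list's 7 measured genes was called higher, the pericyte gene Cspg4, at 400.0 in 2KO and 114 in WT. There 3 of the 7 were above 0 in log2 ratio and 4 below, with a median of -0.08. The part of these cells in the Notch3 differences was not tested.

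Dll1, a ligand of the Delta family, was lower in 2KO in each population. It read 943 in 2KO and 1768 in WT basal epidermis, 774 in 2KO and 974 in WT matrix, and 712 in 2KO and 1322 in WT ORS. All 3 WT arrays lay above the 2KO array of the same population, and the highest 2KO signal lay below the lowest WT signal. The differences were 1.88-fold lower in basal epidermis, 1.26-fold in matrix and 1.86-fold for ORS. They had the same sign under all 8 alternatives. After scaling to a common median they passed 2-fold in basal epidermis and ORS (log2 ratios of -1.02 and -1.15). The same held after scaling to the hybridisation controls (-1.005 and -1.05). Both scalings lowered the ratios in each population, so a ratio below 0 was bound to keep its sign and grow. The floors at the 25th and 75th percentile and both choices of probe set left the Dll1 ratios as they were. Dll1 is represented by 1 probe set.

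Jag2, the other ligand of the Jagged family, read 1160 in 2KO and 1576 in WT basal epidermis, 962 in 2KO and 1395 in WT matrix, and 1286 in 2KO and 1608 in WT ORS. Its other probe set read 920 in 2KO and 1214 in WT basal epidermis, 995 in 2KO and 1278 in WT matrix, and 1138 in 2KO and 1558 in WT ORS. Both probe sets were lower in 2KO in every population, by 1.25- to 1.45-fold, and the sign of the brightest was the same under all 8 alternatives. Scaling to a common median or to the hybridisation controls lowered its ratios, so neither could turn the sign. The signal of Jag2 varied least among the 9 genes, with a span of 0.74 on the log2 scale over the 6 arrays.

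The comparison of Jag1, a ligand of the Jagged family expressed in epidermis and follicle, depended on the probe set. The brightest read 5811 in 2KO and 6811 in WT basal epidermis, 10772 in 2KO and 12633 in WT matrix, and 10419 in 2KO and 9217 in WT ORS. It was 1.17-fold lower, 1.17-fold lower and 1.13-fold higher in 2KO. The next read 708 in 2KO and 1574 in WT basal epidermis, 1912 in 2KO and 4485 in WT matrix, and 1807 in 2KO and 2308 in WT ORS, and was lower in 2KO by 2.22-, 2.35- and 1.28-fold. The dimmest read 143 in 2KO and 198 in WT basal epidermis, 347 in 2KO and 769 in WT matrix, and 304 in 2KO and 371 in WT ORS, and was lower by 1.39-, 2.21- and 1.22-fold. The 3 probe sets shared the direction in basal epidermis and matrix, but not all reached 2-fold. In ORS the brightest ran against the other 2, and its log2 ratio of 0.18 became -0.08 with arrays scaled to a common median and -0.16 as the mean over all 3.

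Within an array pair the receptors and ligands can be set against each other without regard to a linear scaling of the arrays, since a common factor leaves the difference of 2 log2 ratios as it is. This grouping was made after the values were seen. The receptor had a larger log2 ratio (2KO over WT) than the ligand in 9 of the 9 receptor and ligand pairs in basal epidermis, in 9 of 9 in matrix and in 8 of 9 in ORS, where Notch3 minus Jag1 was -0.03. The pairs share genes and are not independent. The median difference was 1.16 in basal epidermis, 1.03 in matrix and 0.83 for ORS. Notch1 minus Dll1 was the widest in basal epidermis, at 1.81, and in ORS, at 1.90 or 3.73-fold, while in matrix it was 0.77, or 1.70-fold. With the mean over all probe sets of a gene the counts were 9 of 9 in each population, with medians of 1.36, 1.07 and 0.81. Without probe sets with _x, _s or _a in their ID, the ORS count was 8 of 9 and its median 0.58.

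**Figure D2:**
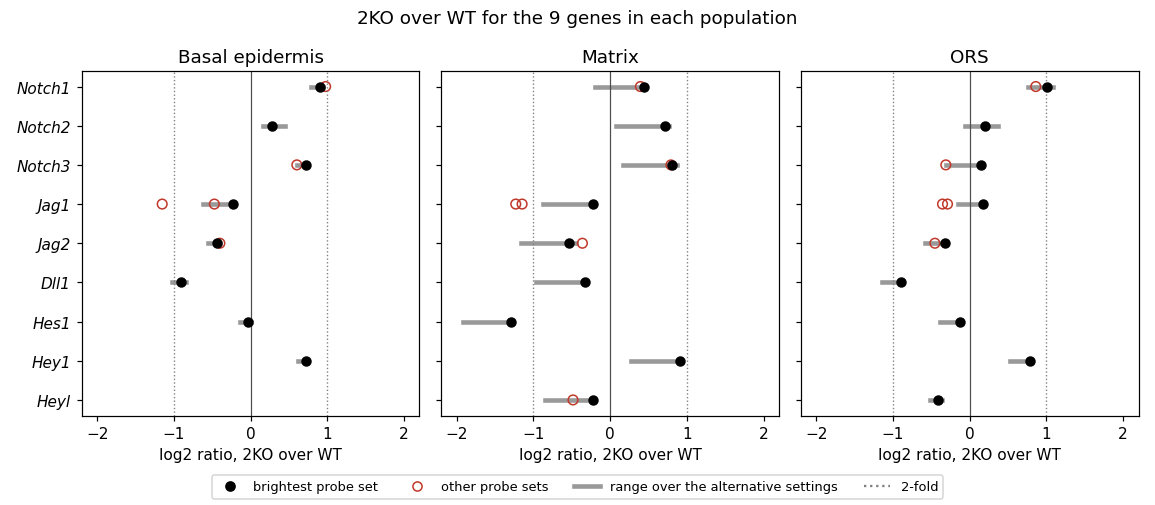
Log2 ratio of 2KO over WT for each gene in basal epidermis, matrix and ORS. Black points are the brightest probe set, open points the other measured probe sets, grey bars the range over the alternative settings, and dotted lines 2-fold. Hes1 in matrix and Notch1 in ORS pass 2-fold, and the far left ends of the bars in matrix are the values scaled to the hybridisation controls for 8 of the 9 genes.

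**Figure D3:**
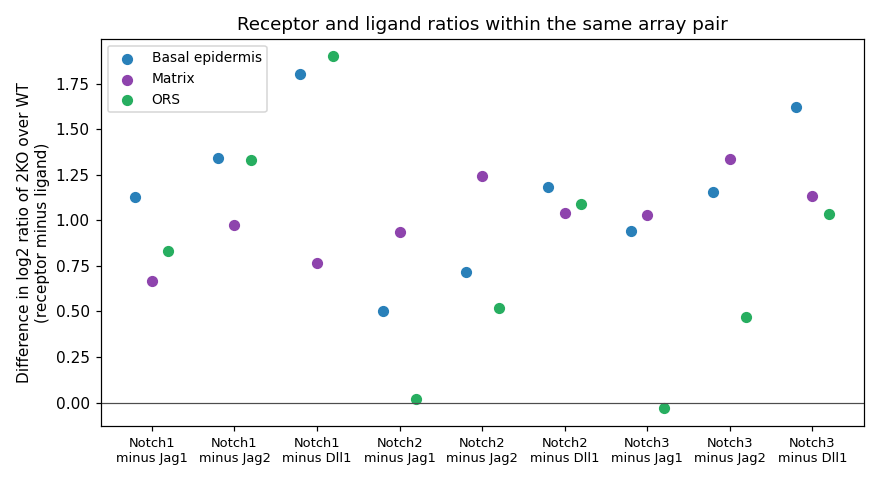
Difference between the log2 ratios (2KO over WT) of a receptor and a ligand from the same 2 arrays, for each of the 9 pairs and each population. In basal epidermis and matrix all points lie above 0, and in ORS 8 of 9, with Notch3 minus Jag1 at -0.03.

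Among the targets, Hes1 and Hey1 went different ways. Hes1, a repressor induced by Notch in many tissues, read 1054 in 2KO and 1075 in WT basal epidermis, 1586 in 2KO and 3871 in WT matrix, and 1264 in 2KO and 1381 in WT ORS. WT matrix stood well above the other 5 arrays, which lay between 1054 and 1586. Hes1 was 2.44-fold lower in 2KO matrix, with a log2 ratio of -1.29 that ranged from -1.92 to -1.28 over the 8 alternatives. It has 1 probe set, so neither choice of probe set could move this ratio. Nor could the floors at the 25th and 75th percentile, which both matrix signals exceeded. Both rescalings lowered matrix ratios and could only take this one further down, to -1.57 and -1.92. Quantile normalization gave -1.28, and so did the pseudocount of 16 without a floor. In basal epidermis Hes1 was 1.02-fold lower, with the sign turned after quantile normalization (0.01), and in ORS 1.09-fold lower. The WT difference between matrix and ORS, 2.80-fold, was 1.25-fold between the 2KO arrays. On the same matrix arrays 11 of 13 matrix marker genes were below 0 in log2 ratio, with a median of -0.74, and the ORS markers had a median of 1.06. The part of the cell mixture in the Hes1 difference was not tested.

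Hey1, of a second family of Notch-induced repressors, read 148 in 2KO and 89.3 in WT basal epidermis, 433 in 2KO and 231 in WT matrix, and 239 in 2KO and 139 in WT ORS. It was higher in 2KO in each population, by 1.65-, 1.88- and 1.72-fold. After scaling to the hybridisation controls the log2 ratios were 0.63 in basal epidermis, 0.28 in matrix and 0.62 for ORS. The sign was the same under the 7 alternatives in which it was measured. It was below a floor set at the 75th percentile. Heyl, the third member of the Hey family, was read at 78.9 in 2KO and 62.2 in WT basal epidermis, both below the floor, at 332 in 2KO and 387 in WT matrix, and at 84.8 in 2KO and 113 in WT ORS. It was 1.17-fold lower in 2KO matrix and 1.33-fold lower in 2KO ORS. Of its other 2 probe sets 1 was below the floor on all 6 arrays, and 1 was above it only in matrix, at 186 in 2KO and 260 in WT. The 10 endothelial markers, which mark cells where Hey genes are also induced, summed to 1449 in 2KO and 1011 in WT basal epidermis, 1018 in 2KO and 834 in WT matrix, and 1726 in 2KO and 1106 in WT ORS. Above 0 in log2 ratio were 7 of the 7 measured in basal epidermis (median 0.45), 4 of 6 in matrix (0.37) and 7 of 9 in ORS (0.47). Between 5 and 8 of the 10 were above the floor on an array. The part of these cells in the Hey1 differences was not tested.

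Hes1, Hey1, Heyl and Jag1 read highest in matrix, then in ORS and lowest in basal epidermis, in both genotypes. For Heyl both basal epidermis arrays were below the floor. Heyl was higher in matrix than in ORS by 3.91-fold in 2KO and 3.42-fold in WT, and was the 1 gene of the set called there in both genotypes, where 3.18% of all genes were called higher and 6.29% lower. Basal epidermis lay below matrix for Hey1 by 2.93-fold in 2KO and 2.59-fold in WT, and for Heyl by at least 3.99-fold in 2KO and at least 4.65-fold in WT. These were the 2 genes called in both genotypes by their brightest probe set, beside 3.77% of all genes called lower and 5.48% called higher. Between basal epidermis and ORS none of the 9 was called in both, beside 1.51% of genes higher and 2.48% lower. Notch1 was highest in matrix, 1.38-fold above ORS in 2KO and 2.06-fold in WT, while basal epidermis and ORS differed by 1.05-fold in 2KO and 1.03-fold in WT. Jag1 was lowest in basal epidermis in both genotypes, and its brightest probe set lay 1.85-fold below matrix in each. Here too the size depended on the probe set. Both other Jag1 probe sets lay below matrix by over 2-fold in both genotypes, the dimmest by 2.43-fold in 2KO and 3.88-fold in WT. Dll1 was highest in basal epidermis in both, 1.32-fold above ORS in 2KO and 1.34-fold in WT. Notch3 was 2.25-fold higher in matrix than in ORS in 2KO, and 1.43-fold in WT. Without replicates, none of these orders can be set against the spread between samples.

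The genes whose signal varied most like that of a member over the 6 arrays were searched among 4961 genes, by the root mean square difference of log2 signals after each gene's mean was removed. For Notch1 these were Ccnd2, which encodes cyclin D2, and Hrob, each at 0.10. For Jag1 they were Pknox1 at 0.07 and Zfp821 at 0.08, for Dll1 Fam83f at 0.10 and Slc15a4 at 0.12, and for Notch3 Plekha6 at 0.08 and St3gal5 at 0.14. Hes1 was closest to Zfp553 and Med18, both at 0.14, Hey1 to Vasn at 0.17 and Tspan13 at 0.18, and Heyl to Fbxo5 at 0.13 and Kctd6 at 0.18. Ccnd2 read 13054 in 2KO and 6634 in WT basal epidermis, 16350 in 2KO and 12190 in WT matrix, and 14375 in 2KO and 6368 in WT ORS. Notch2 and Jag2 varied by less than 1 on the log2 scale and were not searched. The closest of 4961 genes over 6 arrays are close by selection, and shared regulation was not tested.

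The rest of the pathway was described from 9 lists with 78 genes, 71 of them matched. At least 2-fold differences were few in basal epidermis: 0 of 59 measured genes were higher in 2KO and 2 lower. In matrix there were 7 higher and 1 lower of 60, and in ORS 4 higher and 3 lower of 60. The medians were -0.07, 0.13 and 0.13. Over all genes 6.59%, 9.03% and 8.16% were higher and 4.09%, 1.62% and 4.75% lower.

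**Figure D4:**
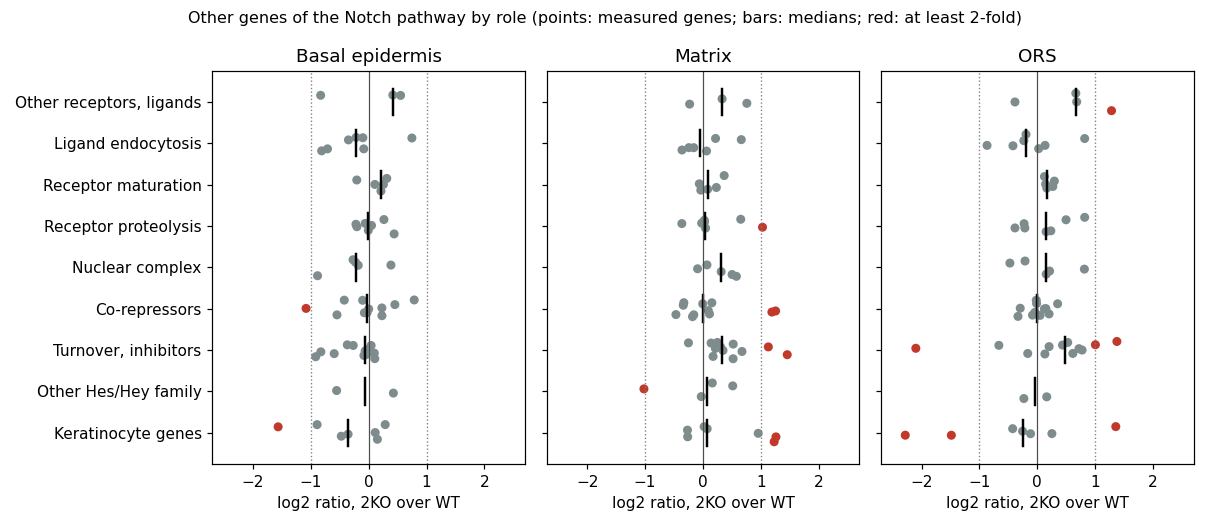
Log2 ratio of 2KO over WT for the measured genes of 9 pathway lists in basal epidermis, matrix and ORS, with a bar at each list's median and genes at 2-fold or more in red. Basal epidermis has 2 such genes, matrix 8 and ORS 7.

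The machinery that makes, cuts and relays the receptor showed few differences of 2-fold. Of 7 genes of receptor proteolysis 1 was called: Ncstn, a gamma-secretase subunit, read 268 in 2KO and 131 in WT matrix, 2.04-fold higher, and below 2-fold after scaling to a common median (log2 ratio 0.75) or to the hybridisation controls (0.40). The protease gene Adam10 differed by at most 1.11-fold in each population. None of 5 measured genes of receptor maturation, such as the glycosyltransferases, was called, and none of 7, 6 and 7 genes of ligand endocytosis. Rbpj, the DNA-binding partner of the receptor, read 771 in 2KO and 590 in WT basal epidermis, 862 in 2KO and 577 in WT matrix, and 1237 in 2KO and 703 in WT ORS. Its log2 ratios were 0.39, 0.58 and 0.81, all above 0 and below 2-fold. The other 4 measured genes of the nuclear complex were also within 2-fold.

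Co-repressors of the Groucho family differed in matrix and basal epidermis. Tle1 read 748 in 2KO and 313 in WT matrix, 2.39-fold higher, and Tle2, at 190 in 2KO and 70.8 in WT matrix, was at least 2.28-fold higher. With arrays at a common median the log2 ratio of Tle1 was 0.98, just below 2-fold, and on the hybridisation controls both were below it (Tle1 0.62, Tle2 0.79). Tle4 read 987 in 2KO and 2088 in WT basal epidermis, 2.12-fold lower. Among 12 genes of turnover and inhibition, the Deltex genes, which encode ubiquitin ligases, held most of the calls. Dtx4 read 279 in 2KO and 1196 in WT ORS, 4.28-fold lower, the largest difference of the pathway lists after Ppara. Dtx3 was 2.19-fold higher in matrix and 2.01-fold higher in ORS, and Dtx1 at least 2.60-fold higher in ORS. The Dtx3 ratios were below 2-fold after both of these scalings, at 0.85 and 0.50 in matrix and 0.75 and 0.85 for ORS, and that of Dtx1 was 0.08 with the mean over probe sets. Nedd4l, another ubiquitin ligase, read 583 in 2KO and 212 in WT matrix, 2.74-fold higher, with a log2 ratio of 1.18 at a common median and 0.82 on the hybridisation controls. Nrarp, a feedback inhibitor that Notch induces, read 866 in 2KO and 916 in WT basal epidermis, 2835 in 2KO and 2571 in WT matrix, and 1108 in 2KO and 770 in WT ORS, all within 2-fold.

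Of 7 other receptors and ligands, 3 were measured in basal epidermis, 3 in matrix and 4 for ORS. Their median log2 ratios were 0.42, 0.33 and 0.67, above 0 unlike most ratios of Jag1, Jag2 and Dll1, with 1 gene below 0 in each population. Dlk2, a relative of the Delta ligands, read 735 in 2KO and 1306 in WT basal epidermis, 181 in 2KO and 144 in WT matrix, and 562 in 2KO and 734 in WT ORS, all within 2-fold. Dll4 was below the floor on all 6 arrays, and Notch4 above it only in WT matrix, at 97.6. Dlk1, an imprinted relative of the Delta ligands, read 202 in 2KO and 70.8 in WT ORS, at least 2.43-fold higher. Of 8 other genes of the Hes and Hey families, 2 to 4 were measured in a population. Hes6, which counteracts Hes1, read 574 in 2KO and 1164 in WT matrix, 2.03-fold lower. Of 7 keratinocyte genes linked to Notch, Cdkn1a, a cell cycle inhibitor, was 2.35-fold higher in matrix and 2.56-fold higher in ORS, and the differentiation keratin Krt10 2.40-fold higher in matrix. In matrix both were below 2-fold after scaling to a common median (0.95 and 0.98) and to the hybridisation controls (0.60 and 0.63). Krt10 is one of the 8 suprabasal markers, which summed to 30835 in 2KO and 12578 in WT matrix, with 4 of 8 called higher and a median log2 ratio of 1.11. The part of suprabasal cells in these differences was not tested. Ppara, a nuclear receptor of lipid metabolism, was lower by at least 2.96-fold in basal epidermis and at least 4.86-fold in ORS, and Cebpa, a factor of keratinocyte differentiation, 2.80-fold lower in ORS. Of the 8 calls in matrix over all these lists 3 were kept at a common median (Tle2, Nedd4l and Hes6). On the hybridisation controls 1 was kept, Hes6. Both scalings lowered the ratios in matrix, to medians of -0.24 and -0.58 over all measured genes. The lower call, Hes6, was thus bound to be kept by them. Its log2 ratio was -0.99, below 2-fold, after quantile normalization. It had no value without probe sets marked _x, _s or _a. Trp63, the master factor of basal keratinocytes, read 5470 in 2KO and 10141 in WT basal epidermis, 5325 in 2KO and 6411 in WT matrix, and 7808 in 2KO and 10485 in WT ORS, below 2-fold in each. In matrix the other markers given above moved on the same arrays, and their part in these differences was not tested.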

How the data were processed

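RNA of 6 samples was hybridised to 1 Affymetrix mouse array each. The authors deposited linear intensities, namely MAS5 signals. The submitters' processing notes name MAS5, and its version is not given in the sources used here. Images were background-subtracted, per the series text. The deposited signals have a 2% trimmed mean of 500 on every array, and medians from 72.6 to 99.0. A shift of most genes in 1 direction cannot be seen after such scaling.

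Of 45101 probe sets, 34945 name 1 gene, 932 name several and were left out, 9211 have no symbol, and 64 are controls. The brightest probe set, by mean log2 signal, stood for a gene. From these deposited intensities, log2 ratios were computed with Python 3.11.15 and pandas 2.3.3 after a floor of 83.2, and called at 2-fold. Between 47.8% and 53.1% of probe sets lay above the floor. The number of arrays limits the precision. The calling was tested on simulated data, as a check of the code only. The spread between replicate arrays was not tested.

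The 8 alternatives were 3 scalings, 3 floors and 2 choices of probe set. Hybridisation scaling used 18 control probe sets. Named were all 9 genes, Ezh1 and Ezh2, up to 4 genes per pathway list that reached 2-fold, and the 2 most alike genes per member, searched among genes above the floor on at least 5 arrays with a span of at least 1 (log2) and with clone-name symbols passed over. Adam10, Rbpj, Nrarp, Dll4, Notch4, Dlk2, Cspg4 and Trp63 were added after their values were seen. The members and lists were chosen with earlier results of these data known.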

Additional observations from a re-analysis of the deposited data

Results flagged for a closer look

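Among the 23 genes examined for this, the 9 of the set and 14 named from the pathway lists, 10 had a ratio of 2KO over WT that pointed one way in 1 population and the other way in another. Each population has 1 array per genotype, and the difference between populations was not tested. The gap between the highest and the lowest log2 ratio was 0.41 for the ligand Jag1, which was below 0 in basal epidermis and matrix and above 0 in ORS. It was 2.62 for Dtx4, with 0.52 in matrix and -2.10 in ORS, and 1.75 for Dtx1, with 1.38 in ORS and -0.37 in basal epidermis. Tle2 had a gap of 1.74, with 1.19 in matrix and -0.55 in basal epidermis. Hes6 had one of 1.45, with 0.43 in basal epidermis and -1.02 in matrix. The gap was 1.56 for Cebpa, 1.52 for Krt10, 1.33 for Tle1, 1.19 for Dtx3 and 1.09 for Ncstn.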

How the results depend on the processing

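Of 96 counts of calls under the alternatives, 20 differed from the main count by over 1.5 times. The ORS count of higher genes in the set, 1, was 0 after scaling to a common median, after scaling to the hybridisation controls and with the mean over all probe sets of a gene. The count of lower genes was 1 in basal epidermis and 1 in ORS after both of those scalings, which in each case was Dll1, against 0. In matrix it was 2 after scaling to the hybridisation controls, with Jag2 (-1.17) beside Hes1, against 1. The Heyl call of matrix over ORS was lost (0) with the mean over probe sets and with the floor set at the 75th percentile, and the 2 calls of basal epidermis over matrix were lost (0) with that floor. Calls of the pathway lists numbered 4 after scaling to a common median, 5 without a floor (pseudocount of 16), and 7 and 1 with floors at the 25th and 75th percentile, in basal epidermis, against 2. In matrix they numbered 3 after scaling to a common median, 2 after scaling to the hybridisation controls, 3 with the 75th-percentile floor and 5 without probe sets marked _x, _s or _a, against 8. In ORS they numbered 4 with a floor at the 75th percentile, against 7. The cause was not tested, except that a higher floor leaves fewer genes measured. Of 202 log2 ratios of the 9 genes under the alternatives, 10 moved by over 1.5-fold, 9 changed sign, and 0 of the called ones changed sign. The median log2 ratio of all measured genes was -0.07 (basal epidermis), -0.24 (matrix) and -0.24 (ORS) after scaling to a common median, and -0.06, -0.58 and -0.14 after scaling to the hybridisation controls. The labels number no replicates, and a fit with the populations as pairs was not made, since it would take cell types as replicates. Genes near the floor or with 1 array of a called pair below it, here Hey1, Heyl, Dlk1, Tle2, Dtx1 and Ppara, are the least certain.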
